A study of Mus musculus with 12 samples.

Results

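The AP-1 and immediate early genes described here are 10 members chosen by gene symbol: the Fos family genes Fos, Fosb and Fosl1, the Jun family genes Jun, Junb and Jund, and Egr1, Ier2, Ier3 and Dusp1. They were found as 10 of the 55415 entries of the deposited expression table, and all 10 were among the 13668 genes that reached at least 1 FPKM (counts per kilobase of exons and per mega count of the library) in at least 3 of 12 libraries. Bulk RNA was sequenced from tumours of CT26, a colon carcinoma line of the BALB/c mouse, grown in mice. The 4 groups of 3 libraries were tumours of mice given Complex 1 and radiation (the combination), radiation alone, Complex 1 alone, or no treatment (control). The series title calls the compound a platinum complex that X-rays activate. The labels do not give doses, times, host strain or age. They also do not say whether a sampled tumour itself was irradiated, or whether the libraries of a group came from separate animals. Each p-value therefore measures only the spread among these samples, which may be technical. By the sex-linked genes below, control replicate 2 is unlikely to be a technical repeat of the other controls.

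Immediate early genes are transcribed within minutes of a stimulus without new protein synthesis, through MAP kinases acting on factors that are already present, such as SRF with its ELK partners and CREB. Fos proteins pair with Jun proteins, or Jun proteins with each other, to form AP-1, a dimeric transcription factor that binds the promoters and enhancers of growth, matrix and inflammatory genes. Dusp1 encodes a phosphatase that switches MAP kinases off again. The same genes respond to wounding and to the handling of tissue, and the labels do not state how long tumours waited before RNA extraction. The part of handling in the values below was not tested.

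The libraries held 15.6 to 19.1 M (mega) counts, and a member had 166 to 12357 counts in a library. Of 8 epithelial markers, 5 (Krt8, Krt19, Epcam, Vil1 and Cdx2) stayed under 1 FPKM in every library. The summed level of the list was 88.6 to 108 FPKM in combination, 86 to 140 in radiation, 73.2 to 153 in Complex 1 and 123 to 154 in control tumours, and Krt20 made up most of it, with means of 94.4, 105, 99.6 and 136 FPKM in the same order. Control replicate 2 stood apart: Xist, the RNA of the inactive X chromosome, was at 0.02 FPKM there with 28 counts of 4 Y-linked genes, against 9.2 to 14.16 FPKM and at most 1 such count in the other 11 libraries. Such values differ as between a male and a female host, so control replicate 2 is unlikely to come from the same animal as control replicate 1 or 3. For each member call that is lost without control replicate 2, and for other genes where named below, the value without it is given.

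Fos and Ier3 were the members that rose in combination tumours relative to control, by 1.7-fold and 1.66-fold. Fosb fell there. Jund fell under each treatment given alone, and its change in combination tumours relative to control did not pass. Ier2 fell after radiation. Fosl1, Jun, Junb, Egr1 and Dusp1 passed no test between groups. Each change is a log2 fold change with its SE from the quasi-likelihood test of edgeR on counts, with p-values adjusted after Benjamini-Hochberg over 13668 genes, and a gene is said to rise or fall where the adjusted p was under 0.05. Levels are FPKM.

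Of the 10 members, 3 passed in combination against control, where 21.9% of all tested genes passed. In radiation against control 2 members passed, with 13.2% of all genes, and in Complex 1 against control 1 member, with 0.812% of all genes. Radiation added to Complex 1 (combination against Complex 1) gave 2 members, with 9.98% of all genes. Complex 1 added to radiation (combination against radiation) gave 0 members, with 0.651% of all genes. The median log2 change of the 10 members was -0.01 in combination, -0.11 in radiation and -0.05 in Complex 1 tumours relative to control, and that of all tested genes lay between -0.01 and 0.01. The change was above 0 for 5 of 10 members in combination, 2 in radiation and 4 in Complex 1 tumours. The shares over all genes moved with single libraries. In Complex 1 against control 111 genes passed, against 4 without control replicate 2, 25 without Complex 1 replicate 2, 57 to 70 without control replicate 1 or 3 or Complex 1 replicate 3, and 236 without Complex 1 replicate 1. In radiation against control 1810 genes passed, against 1007 without control replicate 2, 899 without control replicate 1, 865 without radiation replicate 1 and 1153 without radiation replicate 3. In combination against Complex 1, 582 to 880 of 1364 calls were left without Complex 1 replicate 1 or 2 or any combination library, and in combination against radiation 25 to 41 of 89 without radiation replicate 1 or 2 or combination replicate 1 or 2. These comparisons share control or combination libraries and are not independent of each other.

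**Figure D1:**
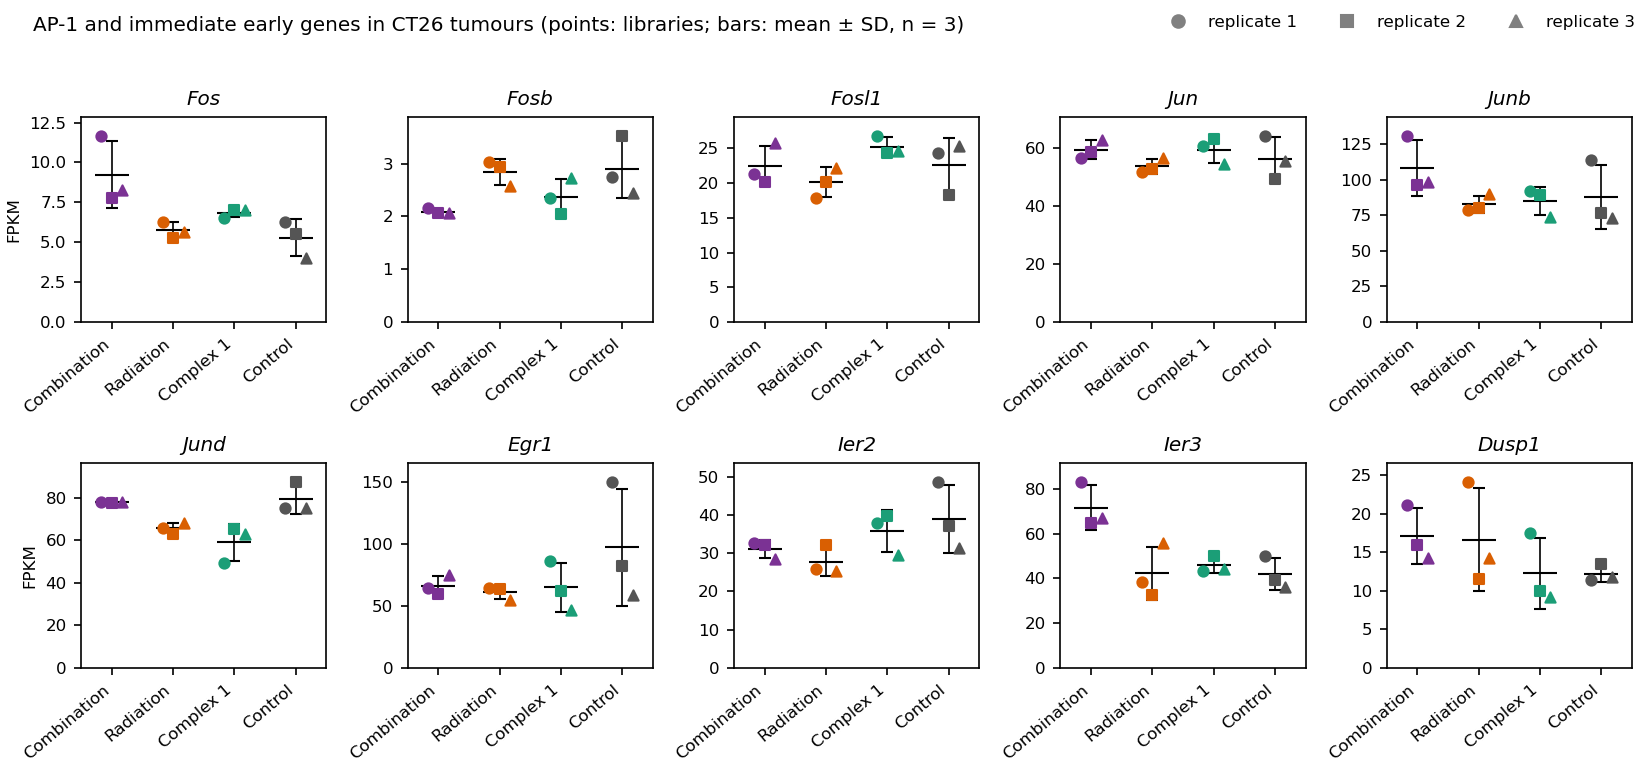
FPKM of each of the 10 genes in each of the 12 libraries, by group; points are libraries (circle, square and triangle for replicates 1, 2 and 3), the bar is the mean and the whiskers the SD of 3. In the Fos and Ier3 panels all 3 combination points lie above every other point, and in the Jund panel the radiation and Complex 1 points lie below all control points.

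Levels per length ordered the members from Junb, with a mean of 91 FPKM over the 12 libraries, to Fosb, with 2.56 FPKM. Between them came Egr1 (72.5), Jund (70.4), Jun (57.1), Ier3 (50.4), Ier2 (33.4), Fosl1 (22.6), Dusp1 (14.6) and Fos (6.77 FPKM). Junb stood at percentile 96.8 of tested genes by level and Fosb at percentile 23.6. Egr1 and Jund were not separated, since Egr1 was the higher of the pair in 3 of 12 libraries. Jun was above Ier3 in 9 of 12 libraries and Junb above Egr1 in 10. Each of the other neighbours kept its order in 11 or 12 libraries.

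Fos encodes c-Fos, the founding Fos protein, which needs a Jun partner to bind DNA (ENSMUSG00000021250, chromosome 12, 85520664 to 85524047, mm39, as are all gene positions given). It was at 11.67, 7.78 and 8.27 FPKM in combination tumours, 6.28, 5.29 and 5.66 in radiation tumours, 6.52, 7.03 and 6.99 in Complex 1 tumours, and 6.26, 5.54 and 3.99 in control tumours. All 3 combination libraries were above the other 9, and the Complex 1 libraries were above the control libraries. Fos rose in combination relative to control by 0.76 ± 0.17 (edgeR, adjusted p = 0.0079). It rose by 0.51 ± 0.12 (edgeR, adjusted p = 0.048) for Complex 1 averaged over both levels of radiation, a main effect in which 1 member and 2.77% of all genes passed. That call was lost in 10 of 12 fits that left out a library, with adjusted p of 0.035 to 0.11, among them the fit without control replicate 2 (0.53; edgeR, adjusted p = 0.097). In combination against radiation the change was 0.66 ± 0.17 (edgeR, adjusted p = 0.16), which DESeq2 called (adjusted p = 0.023), and against Complex 1 it was 0.41 ± 0.17 (edgeR, adjusted p = 0.15). Combination replicate 1 was the highest library, and without it Fos still passed against control, as in all 12 fits with a library left out, at 0.55 to 0.90 (edgeR, adjusted p of 0.0079 to 0.037).

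Ier3 encodes a short-lived protein of stressed cells that affects survival and is induced through NF-kB among other routes (ENSMUSG00000003541, chromosome 17, 36132576 to 36133815). Its levels were 83.31, 65.02 and 66.90 FPKM in combination tumours, 38.27, 32.75 and 55.79 in radiation tumours, 43.44, 49.93 and 44.45 in Complex 1 tumours, and 49.89, 39.42 and 36.20 in control tumours. The combination libraries were above all others, and the remaining 3 groups overlapped. Ier3 rose in combination relative to control by 0.73 ± 0.17 (edgeR, adjusted p = 0.0095) and relative to Complex 1 by 0.62 ± 0.17 (edgeR, adjusted p = 0.038). The first call held in all 12 fits that left out a library, at 0.60 to 0.88 (edgeR, adjusted p of 0.0024 to 0.045). The second was lost in 7 of them: without control replicate 2 (0.62; adjusted p = 0.05), any Complex 1 library or any combination library, at 0.50 to 0.70 (adjusted p of 0.05 to 0.14). Against radiation the change was 0.74 ± 0.17 (edgeR, adjusted p = 0.097; DESeq2, adjusted p = 0.0027), and without radiation replicate 3, the highest of its group, it was 1.00 (edgeR, adjusted p = 0.016).

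The promoters of these 2 genes are shown because they are the members that rose with both treatments. Each is the 250 bases before the RefSeq transcription start (GRCm38.p6, plus strand, 5′ to 3′), at chr12:85473640-85473889 for Fos and chr17:35821463-35821712 for Ier3. Capitals mark matches to the motifs searched below.
Fos: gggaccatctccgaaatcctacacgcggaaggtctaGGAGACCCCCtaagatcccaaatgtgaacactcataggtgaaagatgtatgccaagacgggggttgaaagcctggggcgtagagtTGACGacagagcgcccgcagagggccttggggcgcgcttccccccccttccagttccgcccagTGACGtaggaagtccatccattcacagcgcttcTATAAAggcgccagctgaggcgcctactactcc
Ier3: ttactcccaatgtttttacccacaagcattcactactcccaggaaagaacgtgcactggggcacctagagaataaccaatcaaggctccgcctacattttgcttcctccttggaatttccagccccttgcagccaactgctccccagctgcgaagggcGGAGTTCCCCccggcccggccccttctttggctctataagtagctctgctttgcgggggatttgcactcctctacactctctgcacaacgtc

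Motifs were searched on both strands in windows of 250 bases before to 50 after the start, which RefSeq gave for 7 of the 10 members (Fos, Fosb, Jun, Junb, Jund, Ier3 and Dusp1) and for 32851 genes in all. TGACG, the short element bound by CREB and ATF factors, was in the windows of Fos, Fosb, Junb and Dusp1, and in 20.8% of all windows. In Fos it lay at -129 to -125 and again at -66 to -62, ahead of a TATAAA at -33 to -28. TATAAA was also in Junb, at 1 to 6 with the start site counted as 1, and in 13.6% of all windows. The full palindrome TGACGTCA, which holds TGACG on each strand, was in 1 member, Dusp1, and in 1.79% of all windows. The NF-kB motif was in Fos at -214 to -205, in Ier3 at -92 to -83, both on the minus strand, and in Fosb, against 4.51% of all windows. TGACTCA, the AP-1 site, was in none of the 7 and in 5.2% of all windows, and the CArG box of SRF was in none of the 7 and in 1.63%. A match describes letters, not binding. Sites outside the windows were not searched, and Fosl1, Egr1 and Ier2 had no window. The lack of a match therefore does not show that a gene lacks the site.

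Fosb, which like c-Fos encodes a Jun partner and is the lowest of the members, was at 2.16, 2.06 and 2.06 FPKM in combination tumours, 3.03, 2.94 and 2.57 in radiation tumours, 2.35, 2.04 and 2.73 in Complex 1 tumours, and 2.75, 3.53 and 2.44 in control tumours. The gene is ENSMUSG00000003545, chromosome 7, 19036621 to 19043976. All combination values were below all control and all radiation values. Fosb fell in combination relative to control by 0.52 on the log2 scale (SE 0.15; edgeR, adjusted p = 0.021), a change opposite to that of Fos in the same libraries. Control replicate 2 was its highest library, and without it the change was -0.36 (edgeR, adjusted p = 0.1). The call was also lost without combination replicate 2 or 3 (adjusted p = 0.064 and 0.065).

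Fosl1 encodes FRA1, a Fos protein with no activation domain of its own that is often high in invasive carcinoma. It ranged over 20.23 to 25.74 FPKM in combination, 17.92 to 22.25 in radiation, 24.37 to 26.82 in Complex 1 and 18.30 to 25.33 in control tumours. These ranges overlapped for every pair except radiation and Complex 1, which were not tested against each other. Combination against control gave -0.06 ± 0.12, with an interval of -0.33 to 0.21 (95%; edgeR, adjusted p = 0.78). Ccdc85b overlaps Fosl1 on the opposite strand and had 111% of its counts over the 12 libraries. Since the strand setting of the counting is not given, reads of such pairs cannot be told apart.

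Jun encodes c-Jun, the strongest activator of the Jun family, which JNK phosphorylates. It was the member that varied least within groups: 56.50, 58.53 and 62.85 FPKM in combination tumours, 51.72 to 56.50 in radiation tumours, 54.29 to 62.93 in Complex 1 tumours and 49.12 to 64.15 in control tumours. All pairs of groups overlapped or touched. The change in combination relative to control was 0.03 ± 0.09, with a 95% interval of -0.17 to 0.22 (edgeR, adjusted p = 0.86).

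Junb encodes a Jun protein that can oppose c-Jun and is prominent in myeloid and T cells. It was at 130.86, 96.09 and 98.17 FPKM in combination tumours, 78.81, 80.03 and 89.76 in radiation tumours, 92.05, 89.11 and 73.43 in Complex 1 tumours, and 113.64, 76.84 and 73.37 in control tumours. The combination libraries were above all radiation and all Complex 1 libraries, while control replicate 1 lay among them. Against control the change was 0.25 ± 0.16 (edgeR, adjusted p = 0.29). Without control replicate 1 it was 0.48 (edgeR, adjusted p = 0.032). Against radiation it was 0.37 ± 0.16 (edgeR, adjusted p = 0.46) and against Complex 1 0.33 ± 0.16 (edgeR, adjusted p = 0.22). The opposite-strand neighbour Prdx2 overlaps Junb and had 60.7% of its counts.

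Jund encodes the Jun protein of resting cells, which is expressed steadily and slows proliferation in fibroblasts (ENSMUSG00000071076, chromosome 8, 71151599 to 71153265). It was at 77.69, 77.68 and 77.96 FPKM in combination tumours, 65.85, 62.83 and 67.85 in radiation tumours, 49.15, 65.25 and 62.74 in Complex 1 tumours, and 75.19, 87.45 and 75.27 in control tumours. Every library of either single treatment was below every control and every combination library. Jund fell in Complex 1 tumours by 0.45 (SE 0.09; edgeR, adjusted p = 0.044) and in radiation tumours by 0.30 (SE 0.09; edgeR, adjusted p = 0.049), both relative to control. In combination tumours it rose by 0.38 ± 0.09 relative to Complex 1 (edgeR, adjusted p = 0.024). Combination against control gave -0.08 ± 0.09, with a 95% interval of -0.28 to 0.13 (edgeR, adjusted p = 0.61).

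The single-treatment calls of Jund were close to the threshold. For Complex 1 against control the call was lost in 10 of 12 fits that left out a library, with changes of -0.52 to -0.34 and adjusted p of 0.047 to 0.2, and it was kept without Complex 1 replicate 1 or radiation replicate 2. For radiation against control it was lost in 9 of 12, with changes of -0.34 to -0.22. Control replicate 2 held the highest Jund value, and without it the changes were -0.38 in Complex 1 (edgeR, adjusted p = 0.2) and -0.22 in radiation tumours (edgeR, adjusted p = 0.18). The rise of combination over Complex 1 was lost without Complex 1 replicate 1, its lowest library (0.26; edgeR, adjusted p = 0.074), and without any combination library (0.38 to 0.39; adjusted p of 0.057 to 0.069).

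Whether the effect of radiation differs with and without Complex 1 was tested as an interaction. No member passed, and 0% of all genes did, in edgeR. At an unadjusted p under 0.05 there were 2 members, Jund and Ier3, and 4.4% of all genes. Jund had an interaction of 0.68 ± 0.13 (unadjusted p = 0.00019; edgeR, adjusted p = 0.94), rank 2 of 13668 genes by p. DESeq2 called Jund alone among the members (0.69, adjusted p = 0.01), and over all genes it called 5 higher and 1 lower. Ier3 had 0.64 ± 0.25 (edgeR, adjusted p = 1).

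**Figure D2:**
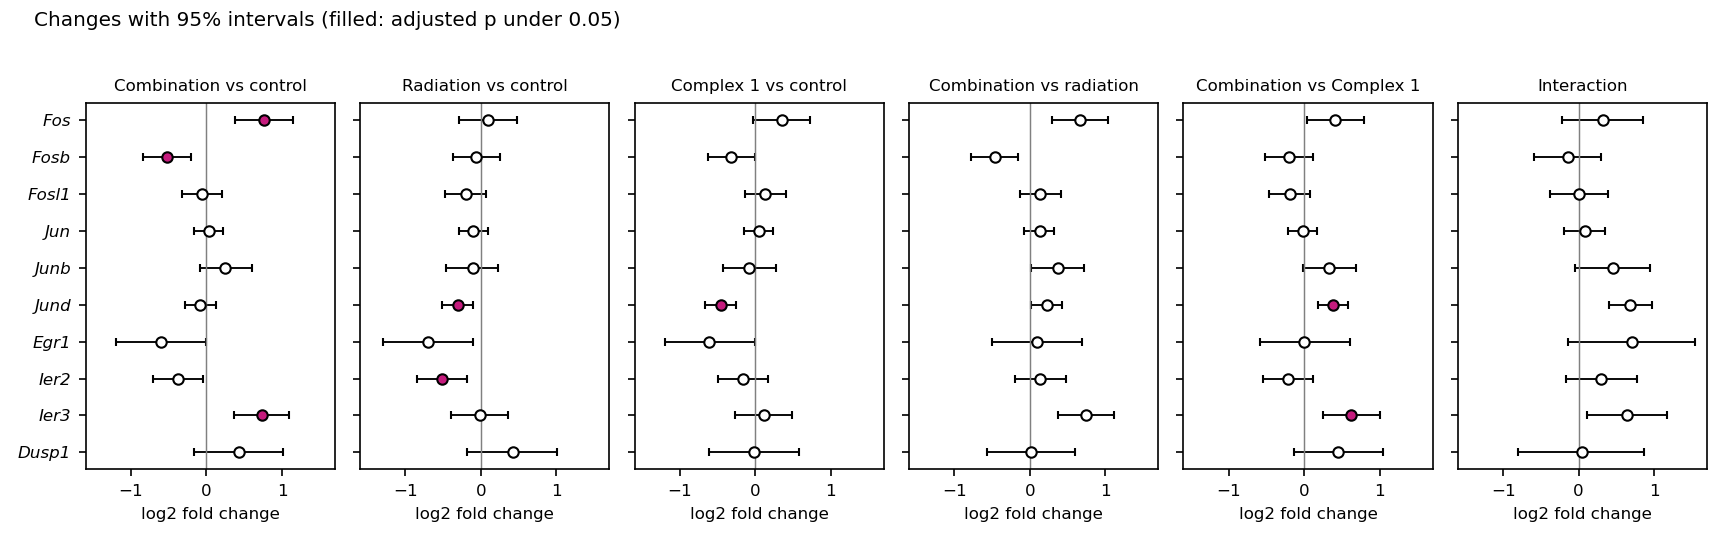
Log2 fold change of the 10 genes in 5 comparisons and the interaction, with 95% intervals from edgeR; filled points have an adjusted p under 0.05. Fos and Ier3 lie right of 0 in combination against control, Jund lies left of 0 for each single treatment and right of 0 in combination against Complex 1, and no interaction point is filled.

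Egr1 encodes a zinc finger factor that growth factors and irradiation induce in many cells. It was at 64.25, 59.36 and 74.90 FPKM in combination tumours, 64.57, 63.87 and 55.05 in radiation tumours, 86.20, 62.21 and 47.10 in Complex 1 tumours, and 150.38, 82.49 and 59.09 in control tumours. The control group overlapped each other group, and its replicate 1 lay far above the rest. The changes relative to control were -0.60 ± 0.28 in combination, -0.70 ± 0.28 in radiation and -0.61 ± 0.28 in Complex 1 tumours (edgeR, adjusted p = 0.14, 0.11 and 0.39). Without control replicate 1 they were -0.15, -0.24 and -0.15. Without control replicate 3, the lowest control library, Egr1 passed in combination (-0.87; edgeR, adjusted p = 0.027) and radiation tumours (-0.96; edgeR, adjusted p = 0.027).

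Ier2 encodes a small nuclear protein induced by serum (ENSMUSG00000053560, chromosome 8, 85387960 to 85389483). Its levels were 32.76, 32.13 and 28.39 FPKM in combination tumours, 25.88, 32.13 and 25.24 in radiation tumours, 37.85, 39.87 and 29.54 in Complex 1 tumours, and 48.73, 37.08 and 31.27 in control tumours. Radiation replicate 2 overlapped the lowest control library. Ier2 fell in radiation relative to control by 0.52 (SE 0.15; edgeR, adjusted p = 0.041), and by 0.37 (SE 0.11; edgeR, adjusted p = 0.023) for radiation averaged over both levels of Complex 1, where 1 member and 26.5% of all genes passed. Each of these calls was lost in 6 of 12 fits that left out a library. Without control replicate 1, its highest library, the change in radiation tumours was -0.33 (edgeR, adjusted p = 0.18), and without control replicate 2 it was -0.55 (edgeR, adjusted p = 0.078). In combination relative to control the change was -0.38 ± 0.15 (edgeR, adjusted p = 0.099), and it passed without control replicate 3 (-0.52; edgeR, adjusted p = 0.028).

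Dusp1, the MAP kinase phosphatase, was at 21.14, 15.89 and 14.22 FPKM in combination tumours, 24.17, 11.52 and 14.21 in radiation tumours, 17.57, 10.01 and 9.22 in Complex 1 tumours, and 11.40, 13.48 and 11.80 in control tumours. All combination values were above all control values, but replicate 1 of each treated group lay well above the rest of its group. The change in combination relative to control was 0.43 ± 0.27 (edgeR, adjusted p = 0.29), with a 95% interval of -0.16 to 1.02. Its annotated locus overlaps Ergic1 on the opposite strand, which had 352% of the counts of Dusp1.

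Groups failed to overlap for 4 members in combination against control (Fos, Ier3 and Dusp1 above, Fosb below), where 38% of all tested genes did. In combination against radiation there were 5 such members (Fos, Ier3, Junb and Jund above, Fosb below), with 16.8% of all genes. There were 4 in combination against Complex 1 (Fos, Ier3, Junb and Jund above), with 30.5% of all genes, 1 in radiation against control (Jund below), with 29.9%, and 2 in Complex 1 against control (Fos above, Jund below), with 16.1%. In combination against radiation the 5 members without overlap had an unadjusted p under 0.05, with 10.3% of all genes. None of them passed the adjustment in edgeR, and DESeq2 called Fos and Ier3. Over all genes DESeq2 called 158 higher and 29 lower there, against 84 and 5 in edgeR.

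The spread within groups also set the members apart from each other. The SD of log2 CPM (counts per mega count of a library) within groups was 0.42 for Egr1 and 0.411 for Dusp1, at percentiles 87.6 and 87.1 of tested genes. It was 0.129 for Jund and 0.119 for Jun, near the median of all tested genes, 0.137. Control replicate 1 was the highest of all 12 libraries for Jun, Egr1 and Ier2 and was above its group mean in 7 members. Control replicate 3 was above its group mean in 1. Combination replicate 1 was the highest library for Fos, Junb and Ier3.

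**Figure D3:**
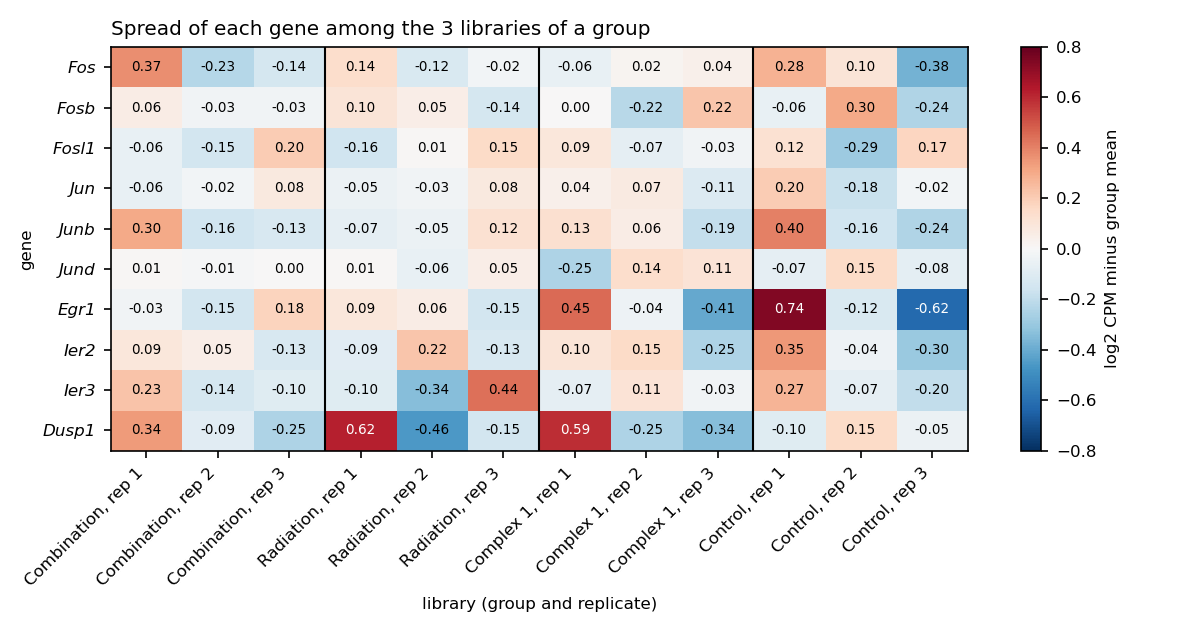
Difference of each library's log2 CPM from its group mean, for 10 genes (rows) and 12 libraries (columns, by group and replicate); red is above and blue below the group mean. Egr1 and Dusp1 have the strongest colours, Jun and Jund the palest, and control replicate 1 is above its group mean in 7 of 10 rows.

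Other immediate early genes were tested on a list of 35, of which 31 passed the filter (Egr4, Nr4a3, Arc and Npas4 did not). In combination relative to control 8 rose and 3 fell, where 11.9% of all tested genes rose and 10% fell. Socs3, an inhibitor of cytokine receptor signalling, was at 76.8 ± 12.9 FPKM in combination, 36.7 ± 6.05 in radiation, 43.6 ± 4.98 in Complex 1 and 31.9 ± 3.21 in control tumours (SD, n = 3 each). It rose relative to control by 1.22 ± 0.14 (edgeR, adjusted p = 0.00013), relative to Complex 1 by 0.80 ± 0.14 (edgeR, adjusted p = 0.0043) and relative to radiation by 1.05 ± 0.14 (edgeR, adjusted p = 0.005). All 3 calls of Socs3 held under all 20 alternatives.

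Nfkbiz, a nuclear IkB protein gene, was at 33 ± 5.17 FPKM in combination and 16.5 ± 0.52 in control tumours, and rose by 0.96 ± 0.14 (edgeR, adjusted p = 0.00059). Zfp36, whose protein speeds the decay of inflammatory mRNAs and of Fos mRNA, rose by 0.86 ± 0.17 (edgeR, adjusted p = 0.0036), and Btg2, an antiproliferative p53 target, by 1.07 ± 0.19 (edgeR, adjusted p = 0.0019). Myc fell by 0.48 (SE 0.10; edgeR, adjusted p = 0.0059) and Klf4 by 0.34 (SE 0.08; edgeR, adjusted p = 0.0061). The median over the 31 genes was 0.10. In radiation relative to control Gem, a small GTPase gene, rose (0.88 ± 0.27; edgeR, adjusted p = 0.049) and Myc fell (-0.62 ± 0.11; edgeR, adjusted p = 0.0034), while none of the 31 passed in Complex 1 relative to control. The Gem call was lost in 12 of 20 alternatives.

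In combination relative to Complex 1, 7 of these genes rose and none fell, where 4.73% of all tested genes rose and 5.25% fell, among them Csrnp1, Ccn1, Btg2 and Ier5 besides Socs3 and Nfkbiz. Of these rises 2 were left without combination replicate 1, 2 without Complex 1 replicate 1 and 3 without Complex 1 replicate 2. In combination relative to control there were 6 rises without combination replicate 1, and 6 without control replicate 2. Nr4a1, a classical early gene, was at 10.6 ± 0.83 FPKM in combination and 11.2 ± 1.07 in control tumours (SD, n = 3 each), and Egr2 was at 3.06 ± 0.911 and 2.95 ± 0.649. Both were chosen after their values were seen, as early genes that did not pass.

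**Figure D4:**
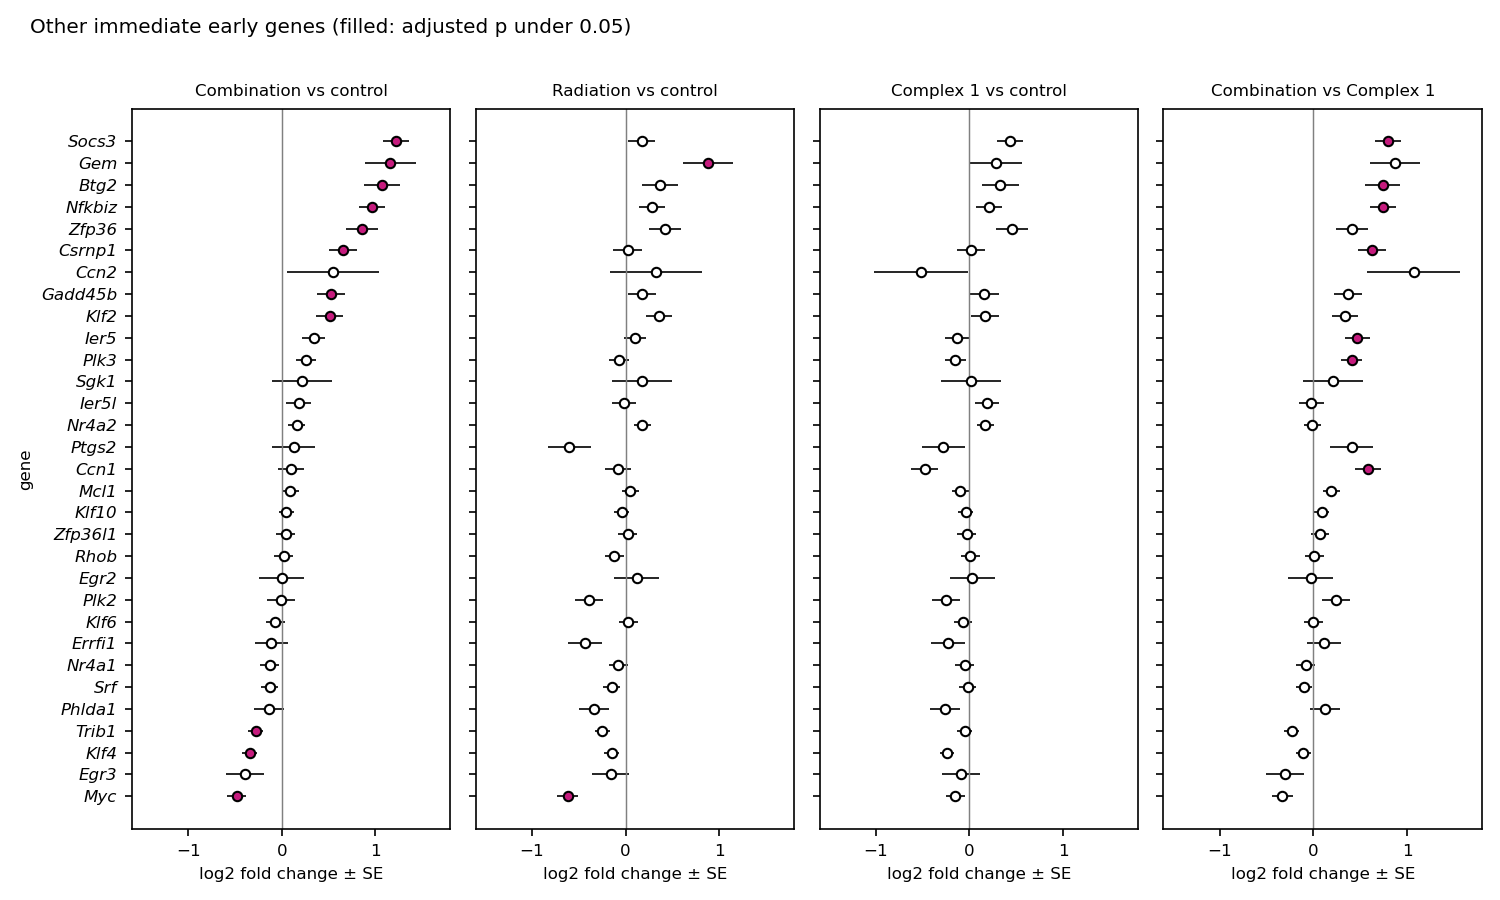
Log2 fold change ± SE of 31 other immediate early genes in combination, radiation and Complex 1 tumours relative to control, and in combination relative to Complex 1; filled points have an adjusted p under 0.05 in edgeR. Socs3 has the largest change in combination against control, Myc lies left of 0 there and in radiation, and no point is filled in Complex 1 against control.

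Among 12 tested genes of the wider AP-1 family, Maf rose in combination relative to control (0.74 ± 0.12; edgeR, adjusted p = 0.001). Atf2 fell there (-0.31 ± 0.07; edgeR, adjusted p = 0.0053). Batf was at 1.4 to 2.38 FPKM in combination, 1.76 to 2.33 in radiation, 0.78 to 1.96 in Complex 1 and 0.78 to 0.84 in control tumours. It passed the filter only through treated tumours, so its levels are given as a description, with no test. Maf is a factor of macrophages and some T cells, and Batf one of lymphocytes. In radiation relative to control Maf rose (0.68 ± 0.12) and Atf2 fell (-0.22 ± 0.07). The Atf2 call in radiation was lost in 14 of 20 alternatives. None of the 12 passed in Complex 1 relative to control, in combination relative to radiation or in combination relative to Complex 1. Fosl2, the remaining Fos gene, was at 20.1 ± 1.11 FPKM in combination and 18 ± 1.19 in control tumours.

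Of 20 upstream kinases and factors, Rps6ka1, which encodes the kinase RSK1, rose in combination relative to control (0.88 ± 0.10; edgeR, adjusted p = 0.00011), as did Mrtfa, an SRF coactivator gene (0.34 ± 0.10). Creb1 (-0.34 ± 0.06), Rps6ka3 (-0.23 ± 0.06) and Elk3 (-0.21 ± 0.07) fell. The Elk3 call was kept in 11 of 20 alternatives, and its combination and control levels overlapped. Without control replicate 2 Mrtfa no longer passed (0.27; edgeR, adjusted p = 0.12). Of 15 tested MAP kinase feedback inhibitors none rose and 3 fell in that comparison: the phosphatase genes Dusp4 (-0.40 ± 0.08) and Dusp8 (-0.44 ± 0.14), and Nab2 (-0.46 ± 0.13), which encodes a corepressor of EGR proteins. Of all tested genes 11.9% rose and 10% fell there, with 21.9% in either direction. Without control replicate 2 Nab2 (-0.45; edgeR, adjusted p = 0.06) and Dusp8 (-0.38; edgeR, adjusted p = 0.14) no longer passed. In radiation relative to control Dusp4, Dusp5 and Dusp8 fell, where 5.85% of all tested genes fell and 13.2% passed in either direction. These 3 calls were lost in 7, 15 and 14 of 20 alternatives.

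Of 18 tested AP-1 target genes, 5 fell in combination relative to control, where 10% of all tested genes fell. No count of rises is given for this list, since it would include Il6. Il6 was at 2.48 FPKM (1.21 to 4.96) in combination, against 0.26 FPKM (0.19 to 0.3) in control tumours. It stayed under 1 FPKM in all libraries of the other 3 groups and so passed the filter only through the combination group, which is why its values are given here as a description, with no test. Mmp9, the gelatinase gene, rose by 1.56 ± 0.25 (edgeR, adjusted p = 0.00092) and Hmox1, the heme oxygenase gene, by 1.17 ± 0.28 (edgeR, adjusted p = 0.011). Vegfa (-0.70 ± 0.14), Spp1 (-0.75 ± 0.19) and Mmp13 (-0.67 ± 0.17) fell. In Complex 1 relative to control Mmp9 alone passed (2.04 ± 0.25; edgeR, adjusted p = 0.0049).

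Markers of infiltrating cells also differed between the groups. The summed level of 10 neutrophil markers was 258 to 431 FPKM in combination, 13.2 to 39.3 in radiation, 100 to 208 in Complex 1 and 13.4 to 22.6 in control tumours. Ly6g was under 1 FPKM in every library. No count of rises is given for this list, since Cxcr2, Retnlg and Mmp8 were under 1 FPKM in all radiation and control libraries and passed the filter only through the other groups. The 10 macrophage markers summed to 2120 to 2250 FPKM in combination, 2110 to 2290 in radiation, 1410 to 1560 in Complex 1 and 1010 to 1200 in control tumours. T cell and cytotoxic markers summed to 220 to 266 FPKM in combination, 118 to 192 in radiation, 55.6 to 139 in Complex 1 and 41.9 to 77.9 in control tumours. In bulk tumours a change in the share of a cell type and a change of RNA per cell cannot be told apart, and the part of these cells in the changes of Fos, Ier3, Socs3 and the other genes above was not tested.

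Heat shock genes, which also respond to handling and stress, gave no rises in these comparisons with control. Of 11 tested, 6 fell in radiation and 2 in combination relative to control, where 5.85% and 10% of all tested genes fell. In either direction 13.2% and 21.9% of all tested genes passed. The medians of the heat shock genes were -0.35 and -0.30. The median in Complex 1 relative to control was -0.37 with none passing. Without control replicate 2 the counts were 2 in radiation and 1 in combination. Without radiation replicate 1 or 2 there were also 2 in radiation, and with either limma fit 3. Over all alternatives the counts ran from 2 to 8 in radiation and from 1 to 7 in combination. Hspa1a and Hspa1b are near-identical copies whose counts are uncertain.

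The genes whose log2 CPM followed a member most closely were taken as the 3 with the highest Pearson correlation over the 12 libraries among 11553 named genes. The libraries share their groups, so these values describe the groups as well as the genes. For Fos they were Adam19 (0.95), Arg2 (0.946) and Steap4 (0.939). For Ier3 they were Slc11a2 (0.945), Csrnp1 (0.937) and the neutrophil chemokine gene Cxcl1 (0.936). For Jund they were R3hcc1 (0.884), H1f2 (0.86) and Phf13 (0.852), and for Ier2 they were Tnfaip1 (0.954), Timp1 (0.947) and Cnnm4 (0.943).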

How the data were processed

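Total RNA libraries were made with an NEB Next Ultra kit, per the labels' protocols. STAR 2.5.3a, HTSeq 2.0.1 and DESeq2 with build mm39 are named in the submitters' processing notes. The strand setting is not given in the sources used here. The deposited table holds raw counts per gene and library. The authors also deposited FPKM, which were recomputed from counts and gene lengths within 0.005. Counts of the 13668 genes with at least 1 FPKM in at least 3 of 12 libraries were TMM-scaled and fitted with edgeR 4.0.16 (R 4.3.3) on group means of all 12 libraries. Alternatives used DESeq2 1.42.0, limma 3.58.1 on log2(FPKM + 1) or log2(FPKM + 0.1), other scalings, no filter, a replicate block, the compared groups alone, and each library left out. Code was tested on simulated data. Text names all 10 members, and at most 6 passing genes of each other list per comparison. Passing genes are not named for every list and comparison, so a gene left unnamed may have passed. The 3 most correlated genes are given for Fos, Ier3, Jund and Ier2 only. Members and lists were chosen with earlier results of these data known. Alternatives for the other lists were added after seeing the data. Promoters are RefSeq sequences of GRCm38.p6, and no coordinates were converted. A gene of the wider AP-1 family is not reported here.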

Additional observations from a re-analysis of the deposited data

Results flagged for a closer look

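Jund was picked out because its libraries moved in opposite ways under the same treatment. Radiation alone put all 3 libraries below all 3 control libraries, while radiation added to Complex 1 put all 3 combination libraries above all 3 Complex 1 libraries. The difference between these effects was 0.68 on the log2 scale (edgeR interaction, adjusted p = 0.94; DESeq2, adjusted p = 0.01), with a 95% interval of 0.40 to 0.97. Leaving out each library in turn gave 0.57 to 0.75, all with an adjusted p of at least 0.43 in edgeR. It is therefore a difference that edgeR did not call after adjustment over all genes and DESeq2 did.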

How the results depend on the processing

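The 10 member changes that passed kept their sign in all 198 alternative fits, with the same call in 123 and the call lost in 75. Fos and Ier3 in combination against control passed in all 20 alternatives each. The numbers of members called, given above as 1 (Complex 1 against control), 2 (radiation against control), 3 (combination against control), 0 (combination against radiation), 2 (combination against Complex 1), 1 (radiation main effect), 1 (Complex 1 main effect) and 0 (interaction), were in the same order 2, 4, 6, 4, 5, 5, 4 and 4 with no filter. That fit spans 31727 genes and has infinite prior degrees of freedom, against 5.07 with the filter. The SE of Egr1 was 0.08 in it, in place of 0.28. In the same order that fit called 591, 1471, 2057, 389, 1246, 2235, 890 and 91 of all genes higher. It called 212, 1221, 1732, 140, 1039, 2076, 372 and 72 lower. With the filter 98, 1010, 1620, 84, 647, 1821, 309 and 0 were called higher. Those called lower were 13, 800, 1372, 5, 717, 1802, 70 and 0. DESeq2 gave 2 members in combination against radiation, 2 for the radiation main effect, 3 for the Complex 1 main effect and 1 for the interaction. Of all genes it called 158, 1930, 462 and 5 higher in these, and 29, 1790, 205 and 1 lower. With either limma fit, counts were 0 for Complex 1 against control, 0 for radiation against control, 1 for combination against Complex 1, and 0 for each main effect. On log2(FPKM + 1), 84, 922 and 669 of all genes were called higher in the first 3, and 10, 464 and 540 lower. The radiation main effect had 1978 higher and 1384 lower, and that of Complex 1 had 294 and 31. Library totals alone gave 0 for Complex 1 and 0 for radiation against control. There 137 and 1163 of all genes were called higher, and 11 and 576 lower. Fitting the compared groups alone gave 0 for Complex 1 and 1 for radiation against control, where 40 and 834 of all genes were called higher. Those called lower were 5 and 459. Leaving out each library in turn gave 0 to 1 (Complex 1), 0 to 2 (radiation) and 2 to 5 (combination) against control, 0 to 1 for combination against radiation, 0 to 2 for combination against Complex 1, 0 to 3 and 0 to 1 for the radiation and Complex 1 main effects, and 0 to 0 for the interaction. The cause of these differences was not tested.

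No pairing by replicate number was seen: deviations of same-numbered libraries correlated at -0.185 to 0.144, with 4 of 18 pairs over 0.1. Libraries with different numbers gave -0.208 to 0.148, with 6 of 36 pairs over 0.1. With 3 libraries a group, such values cannot exclude a pairing. With the replicate block 0 members passed in Complex 1 against control and 2 for the radiation main effect. In the same order 75 and 1868 of all genes were called higher, and 12 and 1780 lower. Of the 52 member changes with an unadjusted p of at least 0.05, 22 changed sign under an alternative. None of those exceeded 0.16 in size in the main fit, or 0.19 after the change of sign.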
